A study of Mus musculus with 47 samples.

Results

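The 8 clones sampled after 14 days of doxycycline were compared with 3 libraries of feeder fibroblasts, which makes 11 of the 47 libraries in the series. Members were taken by title and time label: 4 SC clones (SC1 to SC4) and 4 SI clones (SI1 to SI4), each with 14 days of doxycycline and 0 days without it, and feeders 1 to 3, labelled as mouse embryonic fibroblasts with 0 days of the drug. The labels describe the clones as secondary reprogramming cells, that is, cells descended from fibroblasts that already carry drug-inducible reprogramming factors. They do not spell out SC and SI, the strain, the sex or the identity of the inducible factors, and they do not say whether the feeders came from the same embryos as the clones. Each clone gave 1 library at this time, so the spread is between clones. For the feeders nothing states separate cultures, and p-values may there measure a technical spread. To place levels, 4 iPS libraries from clones SC1 to SC4 were used, with 21 days of doxycycline followed by 6 days without it. The SC clones thus stand on both sides of that comparison.

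Reprogramming of fibroblasts by Pou5f1, Sox2, Klf4 and Myc is known to pass through stages. Fibroblast genes are lowered and division quickens, an epithelial program is taken up in a mesenchymal-to-epithelial transition, and the pluripotency network of the embryo is switched on last. Stable iPS cells keep that network active without the introduced factors.

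Expression was given as RPKM, reads scaled by gene length and by library size. Between 10909 and 11649 genes reached 1 RPKM in a library. In 8 of the 11 libraries single-read steps in the values placed the depth between 40.4 and 86.4 megareads, with a median of 69.8; a multiple of these depths would give the same steps. Feeders carried all 10 fibroblast markers looked up, from Twist1 at 18.8 to 20.2 RPKM to Col1a1 at 1550 to 1783 RPKM. Feeders were tight, with a median SD over genes of 0.0665 on the log2 scale, against 0.214 over the 8 clones. Across the 12087 genes tested, the Pearson correlation of a clone with the feeder mean was 0.763 for SI1, 0.777 for SI4, 0.838 for SC2, 0.863 for SC3, 0.911 for SC1, 0.935 for SI3, 0.938 for SC4 and 0.947 for SI2. Among the iPS libraries, iPS 2 stood nearest the feeders. It correlated 0.838 with feeder 1, against 0.697 to 0.712 for iPS 1, 3 and 4. Genes are not independent replicates, and these values are a description.

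Differences are given on the log2(RPKM + 1) scale, which understates changes of low genes, with the standard error (SE) and the limma p adjusted over all genes tested. Of 12087 genes, 5003 were higher in the clones (41.4%) and 2710 were lower (22.4%) at an adjusted p under 0.05, together 63.8%. With a change of at least 2-fold as well, 1254 genes were higher (10.4%) and 324 lower (2.68%). The median difference over all genes was 0.12. After each library was rescaled by its median ratio the median was -0.0078, and the calls split into 3979 higher and 3970 lower, so that 50.1% of calls were higher in place of 64.9%. The scatter of clone against feeder means shows the rises reaching much further from the diagonal than the falls.

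**Figure D1:**
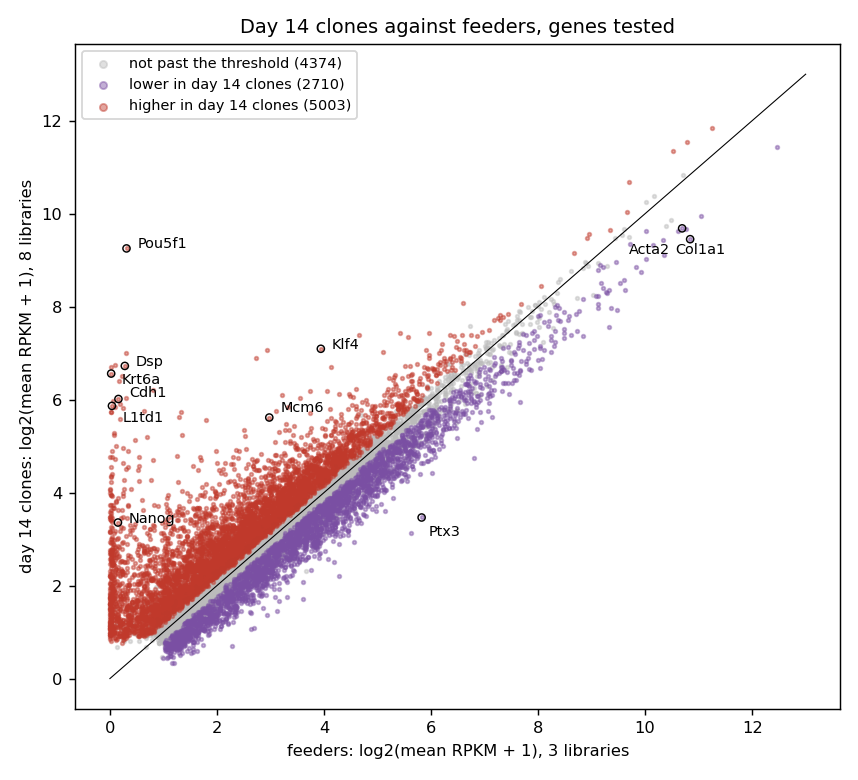
Each point is 1 of the 12087 genes tested, with the feeder mean (3 libraries) on the horizontal axis and the day 14 clone mean (8 libraries) on the vertical axis, both as log2(mean RPKM + 1); the line marks equal values. Red points (5003) were higher and purple points (2710) lower in the clones, and Pou5f1, Dsp and Krt6a lie near 0 in the feeders.

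All 4 reprogramming factors were higher in the clones, and every clone was above every feeder for each of them. Pou5f1, the POU-domain factor at the centre of the pluripotency network, was 0.66, 0.03 and 0.03 RPKM in the feeders and ran from 301 RPKM in SI2 through a median of 615 to 936 RPKM in SI4. Its difference of 8.85 (SE 0.38, adjusted p = 8.2e-07) was the largest rise among the genes named by the rule. Sox2, its DNA-binding partner, was 0.26, 0.16 and 0.11 RPKM in the feeders and 44.1 to 153 RPKM (median 83.9) in the clones, a difference of 6.12 (SE 0.41, adjusted p = 9.42e-06).

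Klf4 and Myc were already present in fibroblasts. Klf4, a zinc-finger factor, was 14.3, 15.1 and 13.7 RPKM in the feeders and 75.2 to 228 RPKM (median 125) in the clones, a rise of 3.04 (SE 0.33, adjusted p = 0.000149). Myc, which drives growth and division, was 22.3, 25.1 and 22.6 RPKM in the feeders and 49.4 to 99.2 RPKM (median 71.5) in the clones, a rise of 1.56 (SE 0.25, adjusted p = 0.000798). Both also stood above the iPS cells, by 3.26 for Klf4 and 2.23 for Myc (adjusted p = 1.46e-06 and 2.95e-06), while Pou5f1 and Sox2 did not pass that test (adjusted p = 0.0851 and 0.822). Reads from the cells' own genes and from introduced copies cannot be told apart in these values.

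**Figure D2:**
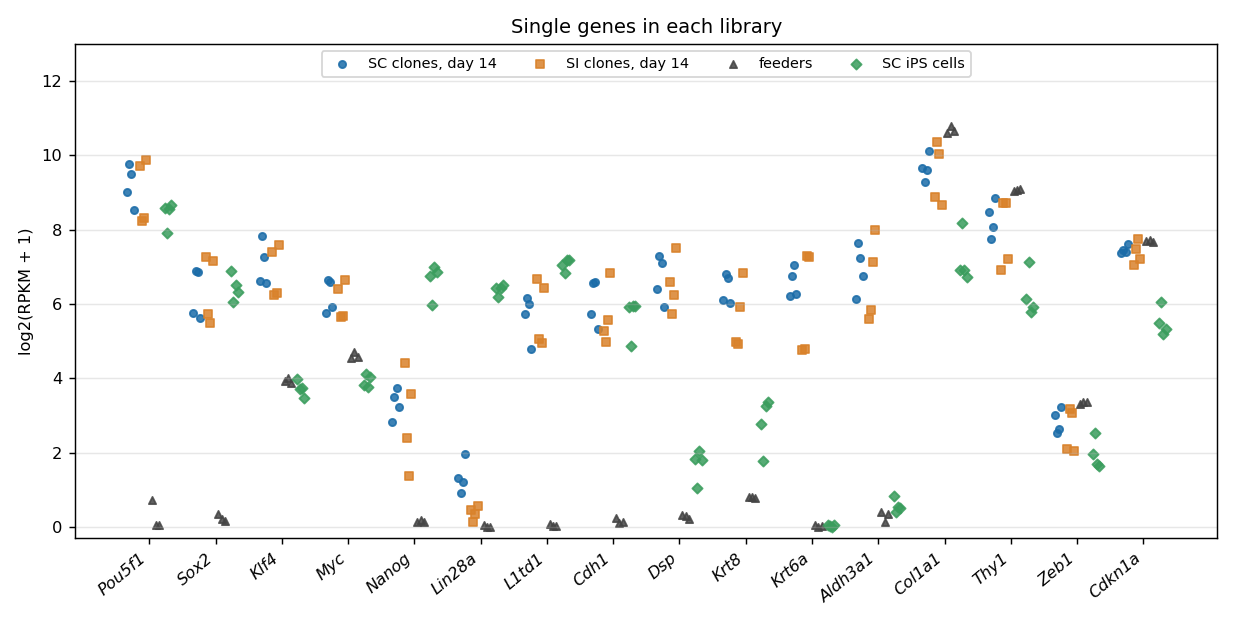
Level of 16 genes as log2(RPKM + 1) on the vertical axis, 1 point per library, for the SC and SI clones at day 14, the feeders and the SC iPS cells. Pou5f1, Sox2, Cdh1 and Dsp separate all 8 clones from the feeders, Lin28a stays far below the iPS cells, and for Cdkn1a 7 of the 8 clones lie below all feeders.

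Most regulators of naive pluripotency were switched on at low levels. Of 20 listed genes 18 were tested, and 15 were higher, Klf2 and Klf5 were lower and Tbx3 did not pass. The call of Klf2 was lost in 10 of 18 settings. Genes that are near 0 in the feeders entered the test only through the clones, here and in the late pluripotency and epithelial lists, so these counts describe and are not support. Nanog, a homeodomain factor that stabilises self-renewal, was 0.1, 0.14 and 0.09 RPKM in the feeders and 1.56 to 20.1 RPKM (median 9.36) in the clones. SI3 was lowest and SI1 highest, without overlap with the feeders, and the difference was 2.98 (SE 0.50, adjusted p = 0.00103). In iPS cells Nanog stood at 102 ± 28.3 RPKM (SD, n = 4), and the clones were lower by 3.51 on the log2 scale than that (adjusted p = 2.75e-05).

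Esrrb, an orphan nuclear receptor of the same network, was at most 0.01 RPKM in the feeders and 0.65 to 12.5 RPKM (median 4.92) in the clones. Its difference was 2.30 (SE 0.61, adjusted p = 0.00874), with SI2 lowest and SC2 highest. Sall4, a zinc-finger partner of Pou5f1, was 0.01, 0 and 0 RPKM in the feeders and 4.94 to 14.0 RPKM (median 10.8) in the clones, a rise of 3.33 (SE 0.30, adjusted p = 5.49e-05). Nr5a2, a nuclear receptor able to replace Pou5f1 in reprogramming, was 0.03, 0 and 0.02 RPKM in the feeders and 5.35 to 19.5 RPKM in the clones, a rise of 3.47 (SE 0.34, adjusted p = 8.83e-05). Its mean in iPS cells was 9.83 ± 2.32 RPKM (SD, n = 4), and that difference did not pass (adjusted p = 0.823).

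Tbx3 was 6.15, 6.64 and 6.49 RPKM in the feeders and 1.98 to 6.54 RPKM in the clones, with overlap (difference -0.40, adjusted p = 0.216). Against iPS cells, 18 of the 20 listed genes were lower and none higher, where 27.2% of 12317 genes tested were lower and 39.7% higher (together 66.9%). With a change of at least 2-fold as well, the shares were 7.44% lower and 12.3% higher. With the SI clones alone 9 of 12 tested naive regulators were higher than in feeders.

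Of 10 listed genes of the late phase, 6 were tested through their levels in the clones, since all were near 0 in the feeders, so that the 6 of 6 called higher is no support. Against iPS cells all 10 were lower. L1td1, an RNA-binding protein of pluripotent cells, was 0.06, 0.01 and 0.01 RPKM in the feeders and 26.8 to 100.1 RPKM (median 57.5) in the clones, lowest in SC4 and highest in SI1. Its difference was 5.68 (SE 0.38, adjusted p = 9.42e-06). Tdh, the threonine dehydrogenase of mouse embryonic stem cells, was 0.02, 0 and 0.02 RPKM in the feeders and 8.59 to 29.3 RPKM in the clones (difference 4.11, SE 0.30, adjusted p = 1.32e-05).

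Lin28a, which blocks let-7 maturation, was 0.03, 0 and 0 RPKM in the feeders and 0.1 to 2.92 RPKM (median 0.685) in the clones, against 83.1 ± 8.06 RPKM (SD, n = 4) in iPS cells. SC4 was highest and SI2 lowest. Its rise of 0.85 (SE 0.33, adjusted p = 0.0416) was lost in 6 of the alternative settings. Dppa4 and Dppa5a, both too low to test, were at most 0.71 and 5.6 RPKM in the clones. The primed epiblast gene Dnmt3b, a de novo DNA methyltransferase, reached 0.74 to 2.9 RPKM in the clones against 94.9 ± 51.5 RPKM (SD, n = 4) in iPS cells.

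Epithelial genes rose broadly. Of 25 listed junction and membrane genes 24 were tested, 23 were higher and above every feeder in every clone, and Jup did not pass. Prss8 stayed too low to test. Over all genes 41.4% were higher, and in 39.7% every clone was above every feeder. Members near 0 in the feeders entered the test only through the clones, so these counts are no support. Cdh1, the E-cadherin of adherens junctions, was 0.18, 0.07 and 0.1 RPKM in the feeders and 30.7 to 114 RPKM (median 49.0) in the clones, lowest in SI2 and highest in SI4. The difference was 5.70 (SE 0.38, adjusted p = 9.42e-06), and it was 0.19 against iPS cells (adjusted p = 0.656).

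Epcam, an epithelial adhesion molecule, was 0.1, 0.06 and 0.04 RPKM in the feeders and 28.9 to 100.1 RPKM (median 53.8) in the clones, a difference of 5.62 (SE 0.36, adjusted p = 9.42e-06). Dsp, the plaque protein of desmosomes, was 0.25, 0.23 and 0.16 RPKM in the feeders and 52.3 to 182 RPKM (median 89.0) in the clones. Dsp rose by 6.32 (SE 0.35, adjusted p = 5.31e-06) and was 4.93 above iPS cells (adjusted p = 1.22e-07). Jup, the desmosomal plakoglobin, was 14.7, 17.0 and 15.1 RPKM in the feeders and 12.7 to 33.9 RPKM in the clones, with SI1 below all feeders (difference 0.59, adjusted p = 0.0539).

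The sequences before the start sites of 3 of these epithelial genes are shown because the core CAGGTG, the E-box of the epithelial repressors Snai1 and Zeb1, is read in them, with different numbers of matches. They are the 250 bases before the start, 5′ to 3′ on the gene's strand, from RefSeq on GRCm38.p6, with capitals marking the core on either strand (CAGGTG or CACCTG). Epcam is on the plus strand at chr17:87635729-87635978, Krt8 on the minus strand at chr15:102004343-102004592 and Dsp on the plus strand at chr13:38151044-38151293.
Epcam: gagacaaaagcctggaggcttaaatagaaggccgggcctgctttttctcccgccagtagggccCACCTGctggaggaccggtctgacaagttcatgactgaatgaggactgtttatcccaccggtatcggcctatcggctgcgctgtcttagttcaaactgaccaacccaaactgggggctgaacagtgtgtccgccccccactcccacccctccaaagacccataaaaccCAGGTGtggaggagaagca
Krt8: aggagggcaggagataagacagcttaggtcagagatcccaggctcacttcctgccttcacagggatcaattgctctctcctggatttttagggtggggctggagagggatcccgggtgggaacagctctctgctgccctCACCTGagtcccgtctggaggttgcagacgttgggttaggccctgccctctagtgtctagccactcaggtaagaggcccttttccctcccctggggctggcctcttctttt
Dsp: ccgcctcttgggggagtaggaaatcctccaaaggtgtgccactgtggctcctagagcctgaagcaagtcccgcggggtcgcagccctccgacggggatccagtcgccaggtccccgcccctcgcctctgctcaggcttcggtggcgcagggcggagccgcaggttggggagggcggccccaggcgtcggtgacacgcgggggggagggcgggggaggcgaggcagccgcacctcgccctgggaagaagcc
Epcam holds 2 matches, starting 187 and 19 bases before the start, Krt8 holds 1 at 111 bases, and Dsp holds 0. These genes and both motifs searched were picked after expression values were seen: of 8 genes looked up, 5 had 6 windows, and 4 of the 6 held the core. Of the junction and membrane genes 18 of 25 matched the table, with 23 windows, of which 14 held the core (60.9%), against 17.2% of all 32851 windows. The core was in 2 of 5 windows of the epithelial regulators (40%) and in 4 of 13 of the squamous genes (30.8%). The other motif, AACCGGTT, which reads the same on both strands and is the site of Grhl factors, was in 0 windows of these 3 lists and in 38 of all windows (0.1%). A match is a description of letters in the window.

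Factors that shape epithelia rose with the junctions. Of 11 listed, 9 were tested and all 9 were higher, beside 41.4% over all genes. Those near 0 in the feeders were tested only through their levels in the clones. Grhl3, a Grainyhead-like factor of surface epithelia, was 0.17, 0.21 and 0.18 RPKM in the feeders and 6.6 to 22.2 RPKM (median 15.2) in the clones (difference 3.59, SE 0.31, adjusted p = 3.94e-05). Grhl1 ran from 2.69 to 9.15 RPKM in the clones over 0.04 to 0.05 RPKM in the feeders (difference 2.60, SE 0.29, adjusted p = 0.000174). Esrp1, the splicing regulator that sets epithelial isoforms, was listed at 0 in all 3 feeders and at 4.67 to 20.2 RPKM in the clones (adjusted p = 0.0002), where iPS cells had 10.9 ± 2.80 RPKM (SD, n = 4).

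Keratins of stratified and squamous epithelium rose past the iPS level. Of 23 listed squamous genes 18 were tested, with 15 higher, Sbsn lower, and Ivl and Sprr1a not past the threshold. Over all genes 41.4% were higher and 22.4% lower. Against iPS cells 17 were higher, beside 39.7% over all genes. Genes near 0 in both references, such as Krt6a, entered both tests only through the clones, so these counts are no support. Krt6a, a keratin of activated keratinocytes, was 0.04, 0 and 0.01 RPKM in the feeders and 26.3 to 154 RPKM (median 91.8) in the clones, against 0.02 ± 0.014 RPKM (SD, n = 4) in iPS cells. The difference from feeders was 6.27 (SE 0.55, adjusted p = 3.94e-05), and that from iPS cells 6.27 (adjusted p = 3.39e-07).

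Krt17, a keratin of basal and wounded epithelium, was 0.1, 0.06 and 0.04 RPKM in the feeders and 15.8 to 296 RPKM (median 79.9) in the clones, lowest in SI2 and highest in SC2 (difference 6.23, SE 0.66, adjusted p = 0.000134). Dsc2, a desmosomal cadherin, was 0.42, 0.36 and 0.38 RPKM in the feeders and 17.4 to 69.7 RPKM in the clones (difference 4.53, SE 0.36, adjusted p = 2.01e-05). Lgals7, a galectin of stratified epithelium, was 0.16, 0.19 and 0.23 RPKM in the feeders and 8.57 to 28.7 RPKM in the clones (difference 3.76, SE 0.26, adjusted p = 1.15e-05).

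Simple keratins split. Krt8 was 0.74, 0.76 and 0.71 RPKM in the feeders and 29.2 to 114 RPKM (median 66.0) in the clones, without overlap (difference 5.24, SE 0.41, adjusted p = 2.01e-05). Its partner Krt18 was 4.25, 4.52 and 4.59 RPKM in the feeders and 4.38 to 19.3 RPKM in the clones, with SI1 and SI2 inside the feeder range (difference 1.05, SE 0.38, adjusted p = 0.0319), a call lost in 8 settings. Krt19 was lower, at 2.44 ± 0.913 RPKM (SD, n = 8) against 3.82 ± 0.336 RPKM (SD, n = 3), with overlap, a call lost in 10 settings.

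Among the other largest rises, Aldh3a1, an aldehyde dehydrogenase of cornea and other epithelia, was 0.32, 0.1 and 0.27 RPKM in the feeders and 47.4 to 252 RPKM (median 123) in the clones, 6.22 above iPS cells (adjusted p = 9.59e-08). Its difference from feeders was 6.50 (SE 0.46, adjusted p = 1.15e-05). Ly6g6c was 0.02, 0 and 0.03 RPKM in the feeders and 20.9 to 237 RPKM in the clones (difference 6.32, SE 0.64, adjusted p = 0.000107). Nefl, the light neurofilament chain, was 0.15, 0.16 and 0.08 RPKM in the feeders and 33.3 to 162 RPKM in the clones, against 3.03 ± 1.13 RPKM (SD, n = 4) in iPS cells (difference from feeders 6.05, SE 0.41, adjusted p = 9.42e-06). All clones stood above all feeders in these 3 genes, but the rule that named them took only genes without overlap.

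**Figure D3:**
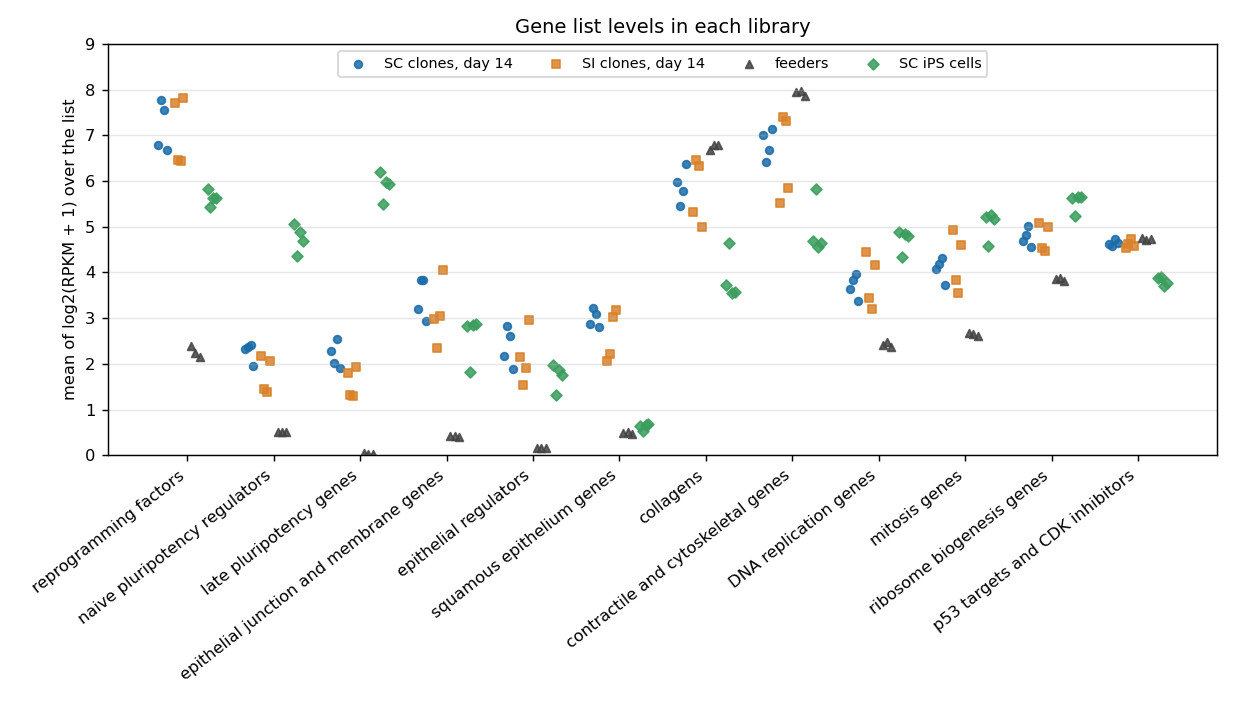
Mean of log2(RPKM + 1) over the genes of 12 lists on the vertical axis, 1 point per library, for the SC and SI clones at day 14, the feeders and the SC iPS cells. The clones exceed both references in reprogramming factors and squamous genes, and lie between them in collagens. In DNA replication and mitosis they are above the feeders. SI1 exceeds the lowest iPS library, iPS 2, in both, and SI4 exceeds it in mitosis (4.6 against 4.58). In collagens iPS 2 (4.64) lies nearer the feeders than the other iPS libraries (3.56 to 3.72).

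Fibroblast genes were lower in the clones but still expressed. Over 6 lists (mesenchymal transcription factors, collagens, matrix glycoproteins, matrix proteases, contractile genes and surface receptors) 92 of 95 listed genes were tested, 68 were lower, 0 were higher and 24 did not pass, with a median difference of -0.97. Over all genes 22.4% were called lower. In 72 of the 92 every clone was below every feeder, where 21.9% of all genes were. That count of 68 depended on the feeders: it was 27 to 31 when any 1 of feeders 1, 2 and 3 was left out, 27 with the SI clones only and 25 with the replicate number as a block, while the median stayed between -0.86 and -1.12 over the settings. Over all genes the 2710 called lower fell as well, to 1214 to 1422 without 1 feeder. It was 1413 with the SI clones only and 1295 with the block. The list counts below come from the same settings. At an unadjusted p under 0.05, 1 gene of the 92 was higher. In bulk RNA, fewer cells of a type and less RNA per cell cannot be told apart.

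All 14 contractile genes were lower. Acta2, the smooth muscle actin of activated fibroblasts, was 699 ± 341 RPKM (SD, n = 8) in the clones and 1834 ± 95.7 RPKM (SD, n = 3) in the feeders, a difference of -1.56 (SE 0.43, adjusted p = 0.0102). Tpm1, a tropomyosin of actin filaments, was 332, 309 and 299 RPKM in the feeders and 65.3 to 213 RPKM (median 147) in the clones (difference -1.24, SE 0.34, adjusted p = 0.00938). Actg2 was 172, 167 and 157 RPKM in the feeders and 55.0 to 124 RPKM in the clones (difference -1.05, SE 0.19, adjusted p = 0.00158). SI1 was the lowest clone for both Tpm1 and Actg2, and SI2 the highest. The count of 14 was 6, 6 and 7 without feeder 1, 2 and 3, 5 with the SI clones only and 4 with the block.

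Matrix genes followed. Of 15 collagens tested 10 were lower, and of 23 glycoproteins and cross-linkers 18 were lower. Col1a1, the main chain of fibrillar collagen, was 1550, 1783 and 1627 RPKM in the feeders and 402 to 1309.6 RPKM (median 799) in the clones, lowest in SI4 and highest in SI2. The difference was -1.11 (SE 0.34, adjusted p = 0.0152), and 0.0577, 0.0521 and 0.0571 were the adjusted p values with the SI clones only, with the block and without feeder 2. Col4a1, of basement membrane, was 247, 277 and 261 RPKM in the feeders and 90.5 to 192 RPKM in the clones (difference -0.92, SE 0.21, adjusted p = 0.0042).

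Loxl2, a collagen cross-linking oxidase, was 213, 219 and 222 RPKM in the feeders and 61.0 to 159 RPKM in the clones (difference -1.09, SE 0.29, adjusted p = 0.00827). Dcn and Mmp3, a proteoglycan and a stromelysin, went the other way without passing, with Mmp3 at 106, 95.2 and 115 RPKM in the feeders and 30.9 to 332 RPKM in the clones (difference 0.61, adjusted p = 0.366). Mmp3 passed with the SC clones only (adjusted p = 0.0017) and without SI1 (0.0202). The glycoprotein count of 18 was 5 to 6 without any 1 feeder, 6 with the SI clones only and 5 with the block, and the collagen count of 10 was 5 without feeder 2, 5 with the SI clones only and 5 with the block.

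Of 15 mesenchymal transcription factors 10 were lower. Twist1, a driver of mesenchymal state, was 9.17 ± 4.31 RPKM (SD, n = 8) in the clones and 19.5 ± 0.721 RPKM (SD, n = 3) in the feeders (difference -1.14, SE 0.37, adjusted p = 0.0202). Zeb1, a repressor of Cdh1, was 8.85, 9.23 and 9.3 RPKM in the feeders and 3.15 to 8.35 RPKM (median 6.16) in the clones, below the feeders in all 8 (difference -0.61, SE 0.25, adjusted p = 0.052). Prrx1, a homeodomain factor of limb and mesenchyme, was 124, 103 and 113 RPKM in the feeders and 30.1 to 99.5 RPKM in the clones, also without overlap (difference -0.80, adjusted p = 0.0579); both passed in 6 of the alternative settings. The count of 10 was 6 without any 1 feeder and 5 with the SI clones only or the block.

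Of 12 surface receptors 7 were lower. Cdh2, the N-cadherin of mesenchymal cells, was 12.7, 13.2 and 12.5 RPKM in the feeders and 3.24 to 8.87 RPKM in the clones (difference -1.0, SE 0.23, adjusted p = 0.00471). Thy1, a surface glycoprotein used to sort fibroblasts, was 530, 540 and 543 RPKM in the feeders and 120 to 464 RPKM (median 310.4) in the clones. Its difference of -0.98 (SE 0.40, adjusted p = 0.0474) was lost in 9 settings. Pdgfra was 26.8, 26.2 and 29.0 RPKM in the feeders and 6.83 to 31.5 RPKM in the clones, with SC4 above all feeders (difference -0.76, adjusted p = 0.11). The count of 7 was 1 to 2 without any 1 feeder and 2 with the SI clones only or the block.

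Clones differed in their levels of fibroblast genes, and the order was similar in the 6 lists. Over the 92 genes the median ratio to the feeder mean was 0.588, 0.391, 0.477 and 0.746 in SC1 to SC4 and 0.249, 0.755, 0.696 and 0.262 in SI1 to SI4. SI1 or SI4 was the lowest clone in 91 of the 92 genes. In the same order of clones Pou5f1 was 512, 869, 719 and 370 RPKM in SC1 to SC4 and 844, 301, 319 and 936 RPKM in SI1 to SI4. So both classes held clones with high and with low ratios, and the clones with the lowest ratios were among those with the most Pou5f1. Whether the fibroblast RNA came from the clones' own cells or from feeder cells in the sample was not tested.

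Markers of other cells moved alongside. The 15 leukocyte and macrophage markers summed to 81.7 to 243 RPKM in the clones and 235 to 249 RPKM in the feeders, with Ptprc and Cd74 under 1 RPKM in every library, and their median ratio was 0.904, 0.510, 0.575 and 0.911 in SC1 to SC4 and 0.219, 0.812, 0.912 and 0.316 in SI1 to SI4. Of 13 tested, 1 was higher, 6 were lower and 6 did not pass, beside 41.4% higher and 22.4% lower over all genes. The 6 lower became 2 without feeder 1, 2 or 3 or with the block. It became 3 without SC2 or SC3 or with the SI clones only, and 10 with group weights. Lyz2, a macrophage lysozyme, was 155, 151 and 164 RPKM in the feeders and 34.3 to 161 RPKM in the clones, with overlap (difference -0.71, adjusted p = 0.153). The higher one was Laptm5, a lysosomal membrane protein of blood cells, at 4.81, 5.3 and 4.75 RPKM in the feeders and 11.3 to 28.6 RPKM in the clones, without overlap (difference 1.67, SE 0.27, adjusted p = 0.000873). Y-linked genes had ratios of 0.834, 0.589, 1.5 and 1.66 in SC1 to SC4 and 1.95, 2.37, 0.967 and 2.26 in SI1 to SI4, in another order. The part of these cells in the fibroblast and macrophage values was not tested.

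**Figure D4:**
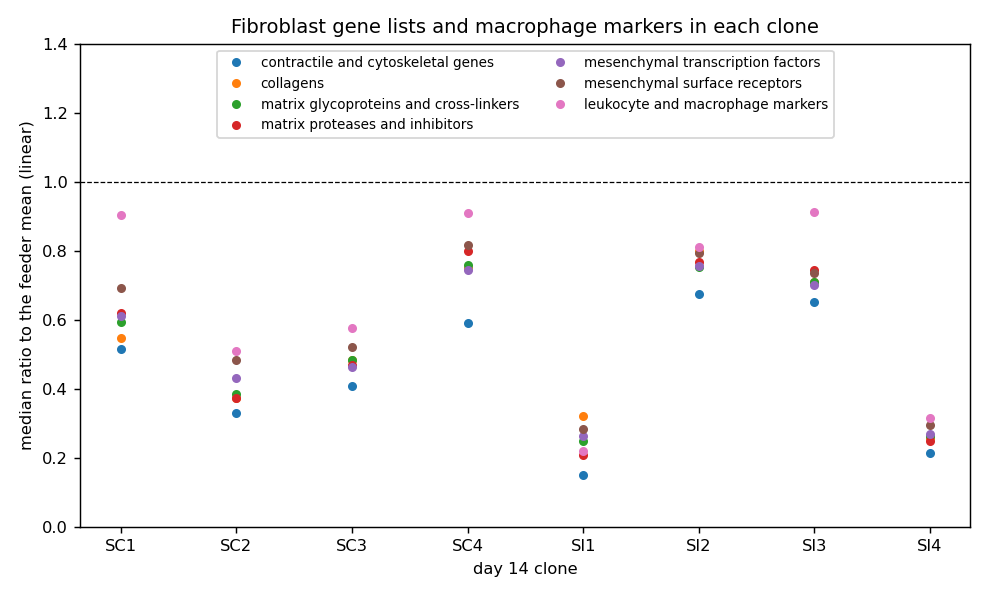
Median over each list of the ratio of a clone's RPKM to the feeder mean (linear vertical axis, dashed line at 1), for 6 fibroblast lists and the leukocyte and macrophage markers in each of the 8 day 14 clones. SI1 and SI4 are lowest in all 7 lists, with contractile genes at 0.150 and 0.213, and SC4, SI2 and SI3 are above 0.59 in all 7.

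Among the largest falls named by the rule, Ptx3, a pentraxin of innate immunity, was 56.0, 49.4 and 61.6 RPKM in the feeders and 2.42 to 19.9 RPKM (median 7.80) in the clones (difference -2.65, SE 0.54, adjusted p = 0.00256). U90926 was 50.4, 52.2 and 43.3 RPKM in the feeders and 0.83 to 15.7 RPKM in the clones (difference -2.78, SE 0.57, adjusted p = 0.00266). Ppbp, a platelet-type chemokine, was 123, 105 and 104 RPKM in the feeders and 4.42 to 42.9 RPKM in the clones (difference -2.29, SE 0.55, adjusted p = 0.00528). In all 3 SI1 or SI4 was lowest. No clone reached a feeder, which was a condition of the rule. Prss23 and the overlapping Prss23os fell by 1.89 and 1.93, but without stated strand their reads cannot be told apart.

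Cell division genes were higher as a group in the clones than in the feeders. The feeders are not labelled as the clones' starting cells, and whether they were dividing was not tested. All 24 DNA replication genes and all 21 mitosis genes were tested and higher, each above every feeder in every clone, where 39.7% of all genes were. Mcm6, a subunit of the replicative helicase, was 7.18, 6.8 and 6.66 RPKM in the feeders and 28.1 to 74.6 RPKM (median 45.9) in the clones, lowest in SC4 and highest in SI1 (difference 2.54, SE 0.30, adjusted p = 0.000233). Cdc20, an activator of the anaphase-promoting complex, was 11.9, 12.7 and 12.4 RPKM in the feeders and 33.1 to 71.0 RPKM in the clones (difference 1.92, SE 0.23, adjusted p = 0.000231). Against iPS cells 21 of the 24 and 18 of the 21 were lower, beside 27.2% over all genes.

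All 23 ribosome biogenesis genes were also higher, beside 41.4% over all genes, with a median difference of 0.95. Against iPS cells 20 were lower, beside 27.2% over all genes. Dkc1, the pseudouridine synthase of small nucleolar RNPs, was 5.46, 5.55 and 4.83 RPKM in the feeders and 16.9 to 39.7 RPKM (median 23.8) in the clones (difference 2.01, SE 0.24, adjusted p = 0.000222). Nop58, a core nucleolar protein, was 24.6, 20.8 and 18.95 RPKM in the feeders and 51.8 to 85.2 RPKM in the clones (difference 1.56, SE 0.17, adjusted p = 0.000143). Neither gene overlapped between the groups.

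Of 20 p53 targets and CDK inhibitors, genes that can brake division, 3 were higher, 5 lower and 12 did not pass. Over all genes 41.4% were higher and 22.4% lower. After rescaling 10 of the 20 were lower, beside 3970 of all 12087 genes. Without any 1 feeder 1 to 3 of the 20 were lower, beside 1214 to 1422 of all genes tested. Cdkn1a, the p21 inhibitor, was 206, 212 and 202 RPKM in the feeders and 132 to 212.5 RPKM (median 170.4) in the clones, with SI3 above all feeders and the other 7 clones below all of them (difference -0.28, SE 0.13, adjusted p = 0.075). It passed as lower in 4 settings: after rescaling (adjusted p = 0.0196), with group weights (0.0102), with the SC clones only (0.0414) and without SI3 (0.0307). It was 46.0 ± 13.4 RPKM (SD, n = 4) in iPS cells, 1.90 lower on the log2 scale than in the clones (adjusted p = 9.58e-07). Cdkn2a, which encodes p16 and p19Arf, was 42.6 ± 6.24 RPKM (SD, n = 8) in the clones and 39.9 ± 1.60 RPKM (SD, n = 3) in the feeders (difference 0.08, adjusted p = 0.557).

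Signalling genes of stroma were lower in part. Of 16 secreted inflammatory genes 7 were lower and 9 did not pass, beside 22.4% lower over all genes. Without any 1 feeder 2 to 3 were lower. Il6, an inflammatory cytokine, was 49.2, 35.5 and 44.1 RPKM in the feeders and 5.72 to 26.6 RPKM (median 19.9) in the clones (difference -1.29, SE 0.36, adjusted p = 0.0112). Ccn2, a target of YAP and SRF, was 467, 471 and 434 RPKM in the feeders and 64.2 to 261 RPKM in the clones (difference -1.61, SE 0.37, adjusted p = 0.00467). Neither overlapped, and SI1 was lowest in both.

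Of 15 TGF-beta and BMP pathway genes 10 were lower and only Skil was higher, beside 22.4% lower and 41.4% higher over all genes. The 10 became 4 and 6 without feeder 2 and 3. Inhba, the activin A subunit, was 241, 297 and 246 RPKM in the feeders and 43.0 to 141 RPKM in the clones (difference -1.45, SE 0.34, adjusted p = 0.00471). In the FGF list 3 were higher and 5 lower of 11, beside the same shares. The 5 became 2 without feeder 1, 2 or 3 or with the block. It became 3 without SC2 or SC3, with the SI clones only or with no filter. Fgfbp1, a carrier that releases FGFs from matrix, was 0.24, 0.14 and 0.02 RPKM in the feeders and 27.2 to 98.5 RPKM (median 51.1) in the clones (difference 5.58, SE 0.37, adjusted p = 9.42e-06).

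Of 17 interferon response genes tested, Oas2 was higher, Ifitm3 was lower and 15 did not pass, and 0 of 8 MHC class I genes passed by limma (2 were lower at an unadjusted p under 0.05). Oas2, an antiviral synthetase, was 1.02, 1.32 and 1.73 RPKM in the feeders and 1.72 to 7.95 RPKM in the clones, with overlap (difference 0.76, adjusted p = 0.0388), a call lost in 9 settings. Ifitm3, a membrane protein that restricts viral entry, was 582, 567 and 577 RPKM in the feeders and 190.4 to 557 RPKM in the clones (difference -0.76, adjusted p = 0.0494), a call lost in 10 settings. SI3 stood apart, and without it 6 interferon and 4 MHC genes were lower. Other settings raised these counts too. With group weights 6 interferon and 7 MHC genes were lower, and with the SC clones only 8 and 4. After rescaling 4 MHC genes were lower, and without SC4 3 were. Over all genes 2710 of 12087 (22.4%) were lower in the main fit, 3611 with group weights and 3970 after rescaling. It was 2946 of 11815 with the SC clones only, 2873 without SI3 and 2934 without SC4. The median ratio of the interferon genes to feeders was 1.6 in SI3 and 0.333 to 0.923 in the other 7 clones.

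The counts of metabolic genes stand beside 41.4% higher and 22.4% lower over all genes in the main fit. After rescaling 3979 of the 12087 genes were higher and 3970 lower. Of 18 glycolysis genes 3 were higher and 15 did not pass, and after rescaling 5 were lower. Slc2a3, a high-affinity glucose transporter, was 0.65, 0.6 and 0.59 RPKM in the feeders and 16.2 to 62.8 RPKM (median 39.9) in the clones (difference 4.36, SE 0.40, adjusted p = 5.38e-05). Gapdh, at only 1.8 to 4.25 RPKM, has many near-identical copies and is uncertain. Of 21 oxidative phosphorylation subunits 11 were higher and 2 lower, but 3 were higher after rescaling and 5 to 6 without any 1 feeder. Shmt1, a serine-to-glycine enzyme, was 2.26, 2.5 and 2.18 RPKM in the feeders and 8.62 to 26.6 RPKM in the clones (difference 2.31, SE 0.29, adjusted p = 0.000286), among 7 of 11 one-carbon genes that were higher.

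Chromatin regulators were higher in part, beside 41.4% higher and 22.4% lower over all genes. Tet2, a 5-methylcytosine oxidase, was 1.36, 1.35 and 1.51 RPKM in the feeders and 8.96 to 28.5 RPKM (median 16.3) in the clones, above its iPS mean of 4.68 RPKM (difference from feeders 2.85, SE 0.33, adjusted p = 0.000209). It was 1 of 7 genes that were higher among 10 tested in DNA methylation, with 1 lower and 2 not past the threshold. Of 18 Polycomb genes 14 were higher, 1 was lower and 3 did not pass. Phc1, a PRC1 subunit, was 2.7, 3.16 and 2.77 RPKM in the feeders and 9.1 to 21.9 RPKM in the clones (difference 2.00, SE 0.24, adjusted p = 0.000248).

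Hox genes, which mark position along the body, were compared next. Of 24 Hox genes tested, 9 were lower, Hoxa9 was higher and 14 did not pass, beside 22.4% lower and 41.4% higher over all genes. Without any 1 feeder 1 to 2 were lower. Against iPS cells 23 of 23 tested were higher, beside 39.7% over all genes. Hoxa9 lost its call without feeder 1, 2 or 3 (adjusted p = 0.0722, 0.0687 and 0.0713), with the SI clones only (0.0581) and with the block (0.0608). Hoxb8 was 2.17, 2.06 and 2.09 RPKM in the feeders and 0.64 to 1.71 RPKM in the clones (difference -0.54, SE 0.15, adjusted p = 0.0113). Of 12 imprinted genes tested 3 were higher, 6 were lower and 3 did not pass, and 3 were lower without feeder 3 or with the block. Mest, an imprinted hydrolase and 1 of the 3 higher, was 2.27, 1.78 and 2.36 RPKM in the feeders and 10.6 to 39.98 RPKM in the clones (difference 2.70, SE 0.37, adjusted p = 0.00043).

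Most genes of other lineages were below the level tested. Of 13 germline genes 10 stayed under 1 RPKM in all 11 libraries, and of 8 mesendoderm genes 6 did. Esx1, a homeobox gene of placenta, was 0.02, 0 and 0.01 RPKM in the feeders and 1.73 to 9.8 RPKM (median 4.97) in the clones (difference 2.51, SE 0.41, adjusted p = 0.000891), against 0.235 RPKM in iPS cells. Tek, an endothelial receptor kinase, was 0.14, 0.11 and 0.17 RPKM in the feeders and 1.59 to 7 RPKM in the clones (difference 1.93, SE 0.31, adjusted p = 0.000856), while 6 of the 9 endothelial markers stayed under 1 RPKM.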

How the data were processed

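The deposited table holds 1 column per library and 22632 genes. The authors' values are read here as RPKM, from the values themselves: weighted by exon length in gigabases, a library's values added up to 0.895 to 0.985, close to the 1 that RPKM implies. CASAVA 1.8 and mm9 are named per the submitters' processing notes, without a role. For the aligner and annotation, a name is not given in the sources used here. GENCODE M21 IDs matched 20750 genes.

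Genes with at least 1 RPKM in at least 3 libraries (4 against iPS cells) were fitted as log2(RPKM + 1) with limma 3.58.1 in R 4.3.3 (lmFit, eBayes with trend), two-sided, Benjamini-Hochberg over all genes tested, threshold 0.05. The fit was also run on simulated data in which both groups had the same spread per gene. Those data do not cover the unequal spread of clones and feeders. Tables used Python 3.11.15, numpy 2.4.6, pandas 2.3.3 and matplotlib 3.10.9.

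Members and the 42 lists (614 genes, 604 in the table) were chosen with earlier results of these data known, so no list has a test. Genes named by rule were up to 8 largest rises and 8 largest falls (at least 5 RPKM, no overlap, predicted genes passed over), up to 2 per list with the smallest adjusted p, the highest gene per list not past the threshold, and a fixed set of pluripotency, epithelial and fibroblast genes; Acta2, Twist1, Krt19, Cdkn2a and members given only by name were picked after their values were seen. SC clones at day 14 and as iPS cells share a clone number, so they pair; same-number deviations correlated from -0.34 to 0.431. Alternatives were another pseudocount, no filter, rescaling, group weights, each class alone, a replicate block and leaving out each library. Some single genes are not reported here.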

Additional observations from a re-analysis of the deposited data

Results flagged for a closer look

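In 170 groups of 8 clones examined (128 genes and 42 list levels), 6 had a highest or lowest clone whose gap to the next, as a share of the whole range, was above the critical value for 8 samples; chance gives about 1 in 20. SI1 was lowest for Sprr1a, a cornified envelope protein (0.648), for Insig1, a regulator of sterol synthesis (0.597), for the level of the surface markers of reprogramming stage (0.558) and for that of the FGF pathway genes (0.608). SI1 was highest for the level of the neuroectoderm genes (0.71), where Pax6 was 2.73 RPKM against at most 0.59 RPKM in the other clones. SI3 was highest for Oas2, an antiviral synthetase (0.553).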

How the results depend on the processing

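Genes lower at least 2-fold in the clones than in feeders numbered 324, and 605 with a pseudocount of 0.1, 577 after rescaling, 179 with SC clones only, 172 with the replicate block and 180 to 451 when 1 library was left out (184 and 206 without SI1 and SI4, 206, 180 and 195 without feeders 1 to 3). Genes lower numbered 2710, and 1413 with SI clones only, 1295 with the block and 1214 to 2934 without 1 library (1214 to 1422 without 1 feeder). The numbers pair no clone with a feeder (correlations -0.0949 to 0.132), and the block gave 4066 higher. Against iPS cells 3347 genes were lower, and 5259 without a filter; 916 were lower at least 2-fold, and 589 to 984 without 1 library (589 and 604 without iPS 3 and 4). Signs turned for Bst2 (-0.11 after rescaling, -0.023 without SI3, and up to 0.073 without SI1) and Mbd3 (-0.127 after rescaling, -0.005 and -0.008 without feeder 1 and 3, 0.083 without feeder 2), neither past the threshold, and for the medians of surface markers (-0.033 after rescaling, -0.02 with pseudocount 0.1), glycolysis (-0.1 after rescaling) and sterol synthesis (-0.133 and -0.001). The cause was not tested. The 3 feeder libraries limit the precision of falls near the threshold.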
